A study of Mus with 18 samples.

Results

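The CXC chemokine genes described here are Cxcl1, Cxcl2 and Cxcl3, whose products attract neutrophils, Cxcl9, Cxcl10 and Cxcl11, which interferons induce, and Cxcl16. They are 7 of the 54532 genes in the count table and were found by symbol. All 7 passed the filter on low counts, which left 13251 genes for testing. The genes were proposed with the results of LPS against control and of each compound against LPS alone already known. Their values in those comparisons, and in comparisons between compounds, which are differences of them, are therefore given as a description, without single p-values. Calls of these genes, and counts at an unadjusted p, are part of that description. They are not independent support for a difference.

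CXC chemokines are small secreted proteins that guide leukocytes along concentration gradients by binding G protein-coupled receptors. Cxcl1, Cxcl2 and Cxcl3 bind Cxcr2 and recruit neutrophils, and their transcription in macrophages follows NF-kB activation below Toll-like receptors. Cxcl9, Cxcl10 and Cxcl11 bind Cxcr3 on activated T cells and natural killer cells, and their genes respond to interferons through STAT and IRF factors. Cxcl16 is made as a transmembrane protein that binds Cxcr6, and Adam10 and Adam17 can release it from the cell surface.

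RNA was sequenced from RAW264.7 cells, macrophage-like cells of the mouse that come from a BALB/c tumour induced by Abelson leukaemia virus, after 6 h of treatment. There were 6 groups of 3 libraries. Of these, 4 groups had received lipopolysaccharide (LPS, a bacterial endotoxin that activates Toll-like receptor 4) at 1 µg/mL together with 100 µM of the cysteine adduct of chlorogenic acid (LPS+CGACys), the cysteine adduct of caffeic acid (LPS+CACys), chlorogenic acid (LPS+CGA) or caffeic acid (LPS+CA). The other two groups were cells given LPS alone (LPS) and untreated cells (control). Chlorogenic acid is the ester of caffeic acid with quinic acid, and the adducts carry a cysteine on the same phenolic. No group analysed here had a compound without LPS or free cysteine with LPS. The labels do not say whether the replicates were separate cultures, so errors and p-values measure the spread between these libraries. The cells were all 1 line, and in bulk RNA fewer expressing cells and less RNA per cell cannot be told apart.

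Libraries held 16105817 to 25624935 counts. Levels below are in CPM, read counts scaled to a common library size with a trimmed-mean factor. They are compared between groups for 1 gene at a time. Where genes are combined, as ratios, sums, shares or class means, the combined value is compared between groups, not 1 gene with another. A gene is called when edgeR's quasi-likelihood test over all 13251 genes gave a Benjamini-Hochberg adjusted p of 0.05 or less. All 8 macrophage markers checked had counts, among them Csf1r and Cd68, and their summed level was 4029 to 4062 CPM in LPS+CGACys, 4443 to 4554 CPM in LPS+CACys, 4994 to 5103 CPM in LPS+CGA, 4603 to 4809 CPM in LPS+CA, 5216 to 5343 CPM in LPS and 5867 to 6049.6 CPM in control. These sums hide opposite changes. With CGACys against LPS, Lyz2 (log2 change -0.70), Cd14 (-0.61), Csf1r (-0.38) and Cd68 (-0.25) were among the macrophage markers called lower. Ptprc (0.26) was called higher. These genes were called in the same directions with CACys. Mrc1 had only 148 reads over all libraries and was not tested. Of the lymphocyte markers, Cd8a and Ncr1 had no count in any library. Replicate 2 of LPS+CA stood apart, with 5.28% of counts on ribosomal protein genes against 4.45% and 4.46% in the other LPS+CA libraries. Calls of the chemokine genes described here that were lost without it are named. Most other values of LPS+CA are given only with it.

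LPS raised all 7 genes. The background for that count is large, since 62.2% of all tested genes were called in LPS against control, and 30.6% of all tested genes were called higher. Cxcl2 was 86.7-fold, Cxcl10 298-fold and Cxcl11 159-fold above control. Cxcl1, Cxcl3 and Cxcl9 had no read in any control library. Against the limit set by 3 reads over the control group, Cxcl3 was at least 1132-fold higher with LPS, and Cxcl1 and Cxcl9 were each at least 39.9-fold higher. Cxcl16 rose least. It averaged 367 ± 18.9 CPM in LPS and 194 ± 6.25 CPM in control (SD, n = 3 each), a 1.89-fold difference.

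Cxcl2, also known as macrophage inflammatory protein 2, was lower with both adducts and not with their parent acids. It stood at 1759.8, 1717 and 1881 CPM in LPS+CGACys and at 1986, 2163 and 2232 CPM in LPS+CACys. It reached 4063, 4145 and 4378 CPM in LPS+CGA and 4494, 5005 and 4646 CPM in LPS+CA, against 4349, 4317 and 4073 CPM in LPS and 53.4, 46.0 and 47.6 CPM in control. Every adduct library lay below every library of the LPS, LPS+CGA and LPS+CA groups, and every LPS+CGACys library lay below every LPS+CACys library. The LPS+CA libraries lay above the LPS libraries, and the LPS+CGA libraries overlapped them. The LPS+CGACys mean was 42.1% and the LPS+CACys mean 50.1% of the LPS mean, log2 changes of -1.25 (SE 0.05, 95% interval -1.36 to -1.14) and -0.998 (SE 0.05, -1.11 to -0.89). The log2 change was -0.02 (-0.13 to 0.09) with CGA and 0.15 (0.04 to 0.26) with CA, and neither was called. Without replicate 1 of LPS+CA the change with CA was 0.18 and was called. In both adduct groups Cxcl2 still lay above every control library.

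Cxcl3, a close paralogue of Cxcl2, was also lower with both adducts, on fewer reads. It measured 20.1, 22.9 and 26.8 CPM in LPS+CGACys, 27.8, 27.9 and 32.9 CPM in LPS+CACys, 70.1, 61.3 and 61.7 CPM in LPS+CGA, 80.5, 82.5 and 68.6 CPM in LPS+CA, 53.3, 54.1 and 64.2 CPM in LPS, and 0 in every control library. The adduct libraries lay below all other LPS-treated libraries, LPS+CGACys did not overlap LPS+CACys, and LPS+CA lay above LPS. Its mean was 40.7% of the LPS mean in LPS+CGACys, 51.6% in LPS+CACys, 113% in LPS+CGA and 135% in LPS+CA. The log2 change with CA was 0.43 (SE 0.10, 95% interval 0.23 to 0.64) and was called. It was 0.38 without replicate 2 of LPS+CA, 0.39 without replicate 1 of LPS and 0.40 without replicate 2 of LPS, and was called in none of those fits. With CGA it was 0.17 (-0.04 to 0.37), not called.

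Cxcl1, the chemokine first described as KC in the mouse, had 13 to 62 reads per LPS-treated library, which limits its precision. Its level was 0.983, 1.62 and 1.49 CPM in LPS+CGACys, 0.774, 1.11 and 1.68 CPM in LPS+CACys, 1.14, 1.77 and 1.72 CPM in LPS+CGA, 1.90, 2.55 and 1.88 CPM in LPS+CA and 2.10, 2.23 and 1.72 CPM in LPS. The adduct libraries all lay below the LPS libraries, but LPS+CGACys and LPS+CACys overlapped each other and LPS+CGA. Its log2 change was -0.57 with CGACys (95% interval -1.18 to 0.05) and -0.74 with CACys (-1.37 to -0.12), and neither was called. The change with CACys was -1.09 and was called without replicate 3 of LPS+CACys. The interval with CACys includes the change of Cxcl2 with the same compound, and that with CGACys includes no change.

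**Figure D1:**
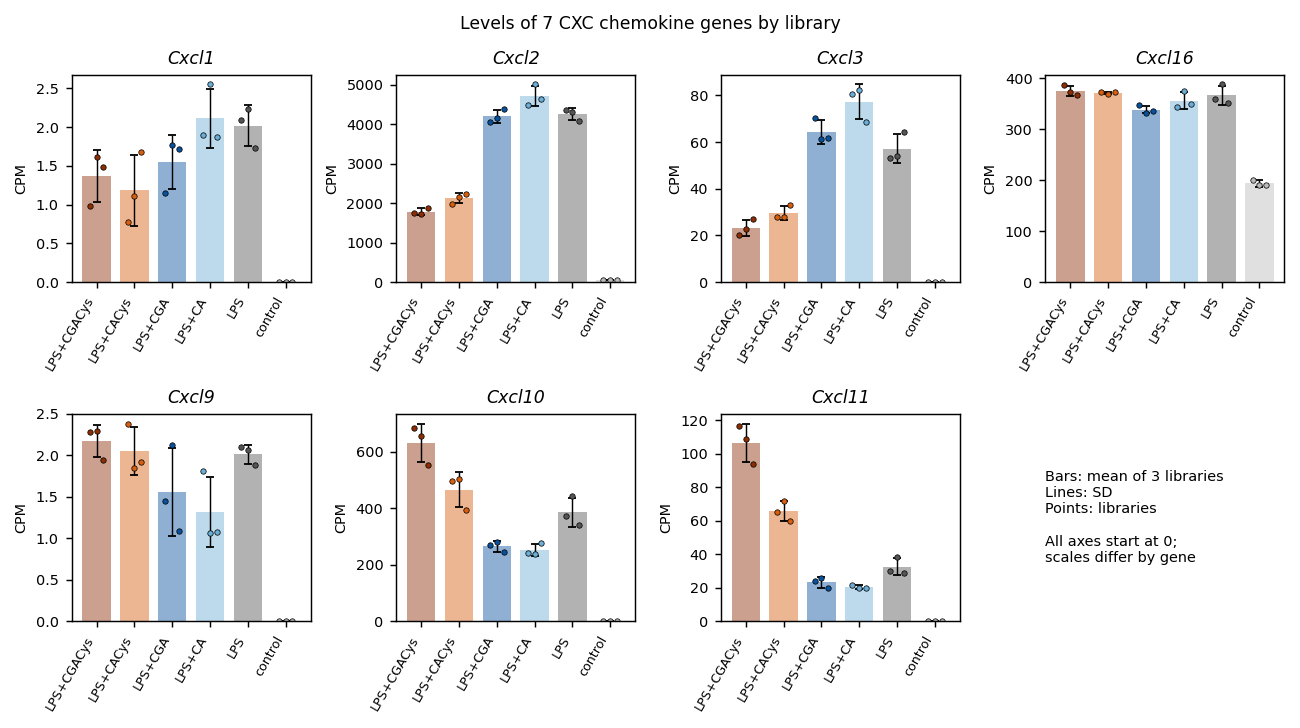
Level of each chemokine gene in CPM (y axis, linear from 0, scale set for each gene) in the 6 groups (x axis). Bars are means of 3 libraries, lines their SD and points the libraries. Cxcl2 averaged 1786 CPM in LPS+CGACys and 2127 CPM in LPS+CACys against 4246 CPM in LPS, and Cxcl11 106 and 65.6 CPM against 32.6 CPM.

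Cxcl10, which encodes a protein first found as induced by interferon gamma, was higher with CGACys and lower with both parent acids. Its libraries stood at 685, 655 and 555 CPM in LPS+CGACys and at 498, 505 and 395 CPM in LPS+CACys. They stood at 269.8, 282 and 245 CPM in LPS+CGA and at 242, 239.7 and 277 CPM in LPS+CA, against 374, 442 and 341 CPM in LPS and 1.66, 1.47 and 0.756 CPM in control. LPS+CGACys lay above all other groups, LPS+CACys overlapped LPS, and both parent acid groups lay below LPS and overlapped each other. The log2 change was 0.71 with CGACys (SE 0.12, 95% interval 0.45 to 0.98), which was called, and 0.27 with CACys (0.01 to 0.54), which was not. It was -0.61 with CA (-0.88 to -0.34), called, and -0.54 with CGA (-0.80 to -0.27), not called. The change with CGA was called by DESeq2, and by edgeR without replicate 3 of LPS (-0.62).

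Cxcl11, the third ligand of Cxcr3, was higher with both adducts and lower with both parent acids. It measured 117, 109 and 93.9 CPM in LPS+CGACys and 65.0, 71.9 and 59.9 CPM in LPS+CACys. It measured 24.4, 25.7 and 19.7 CPM in LPS+CGA and 21.7, 19.8 and 20.2 CPM in LPS+CA, against 30.2, 38.4 and 29.1 CPM in LPS and 0.142, 0.203 and 0.270 CPM in control. The LPS+CGACys, LPS+CACys and LPS groups did not overlap one another, and the parent acid groups lay below LPS and overlapped each other. The mean was 327% of the LPS mean in LPS+CGACys, 201% in LPS+CACys, 71.4% in LPS+CGA and 63.1% in LPS+CA. All 4 log2 changes were called, at 1.71 (SE 0.10), 1.01 (SE 0.11), -0.48 (SE 0.11) and -0.66 (SE 0.11) in that order. The one with CGA was not called without replicate 1 of LPS (-0.53), replicate 2 of LPS (-0.35), replicate 1 of LPS+CGA (-0.51) or replicate 3 of LPS+CGA (-0.38).

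Cxcl9, another gene named for its induction by interferon gamma, had 20 to 54 reads per LPS-treated library. It stood at 2.28, 2.29 and 1.95 CPM in LPS+CGACys, 2.38, 1.84 and 1.92 CPM in LPS+CACys, 1.46, 2.13 and 1.09 CPM in LPS+CGA, 1.81, 1.07 and 1.07 CPM in LPS+CA and 2.10, 2.07 and 1.89 CPM in LPS. Both adduct groups overlapped LPS, as did LPS+CGA, and only LPS+CA lay below it. No change was called. The log2 change was 0.11 with CGACys (95% interval -0.45 to 0.67), 0.02 with CACys (-0.55 to 0.58), -0.36 with CGA (-0.93 to 0.21) and -0.61 with CA (-1.20 to -0.03). The upper bounds with CGACys and CACys lie below the changes of Cxcl11 with the same compounds.

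Cxcl16 hardly varied among the LPS-treated groups. It averaged 376 ± 9.86 CPM in LPS+CGACys, 372 ± 1.46 CPM in LPS+CACys, 339 ± 7.61 CPM in LPS+CGA, 356 ± 16.5 CPM in LPS+CA and 367 ± 18.9 CPM in LPS (SD, n = 3 each). All groups but LPS+CGA overlapped LPS. The 95% intervals of its log2 change ran from -0.06 to 0.13 with CGACys, -0.07 to 0.11 with CACys, -0.21 to -0.02 with CGA and -0.13 to 0.05 with CA, and none was called.

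**Figure D2:**
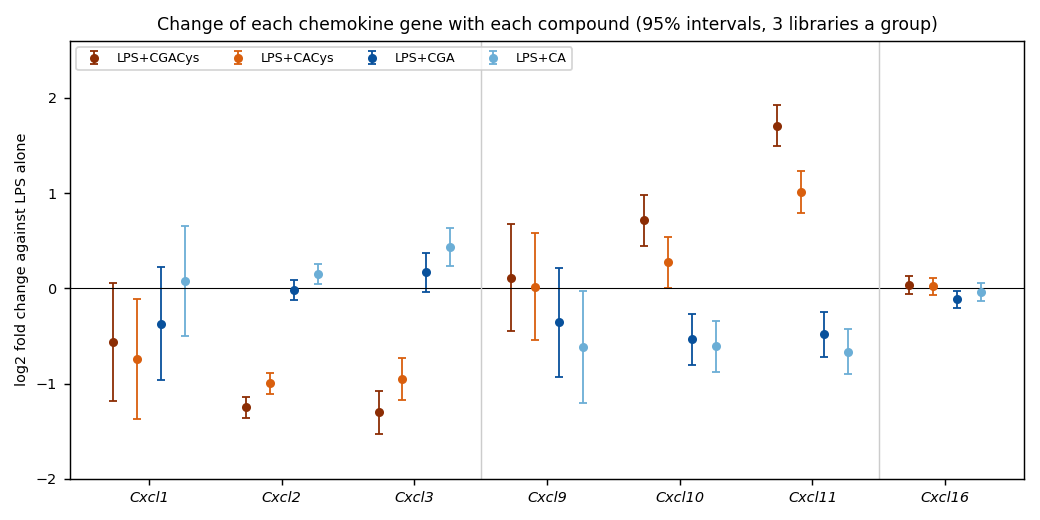
Log2 fold change of each chemokine gene against LPS alone (y axis) for the 4 compounds (colours), with 95% intervals from 3 libraries a group. With CGACys, Cxcl2 and Cxcl3 lie at -1.25 and -1.30, Cxcl10 and Cxcl11 at 0.71 and 1.71, and the wide intervals of Cxcl1 and Cxcl9 reflect their few reads.

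Across the set, 4 of the 7 genes were called with CGACys, 3 with CACys, 1 with CGA and 3 with CA (2 without replicate 2 of LPS+CA). Over all tested genes the shares called were 29.1% with CGACys, 14.3% with CACys, 0.724% with CGA and 7.72% with CA. The genes were chosen on these contrasts, so nothing is read from the difference. With CGACys the median log2 change was -1.25 over Cxcl1, Cxcl2 and Cxcl3 and 0.71 over Cxcl9, Cxcl10 and Cxcl11, beside 0.02 over all tested genes. With CACys the medians were -0.95 and 0.27, with CGA -0.02 and -0.48, and with CA 0.15 and -0.61.

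The comparison of each adduct with its own parent acid asks what the cysteine changes on the same phenolic. Each log2 change here is the difference of 2 changes against LPS alone, which were known when the genes were chosen, so nothing is read from how many of the 7 were called. CGACys against CGA called 5 of the 7 genes, and 33.1% of all tested genes were called. Cxcl2 (log2 change -1.23, SE 0.05) and Cxcl3 (-1.47, SE 0.11) were lower with the adduct in every library. Cxcl10 (1.25, SE 0.12) and Cxcl11 (2.19, SE 0.11) were higher in every library. Cxcl16 was higher by 0.15 (SE 0.04), a call lost without replicate 1 of LPS+CGACys (0.13). Cxcl1 differed by -0.20 (95% interval -0.82 to 0.43) and Cxcl9 by 0.47 (-0.10 to 1.03), and neither was called.

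CACys against CA gave the same directions. It called 5 of the 7 genes, beside 27.1% of all tested genes. Cxcl2 differed by -1.15 (SE 0.05), Cxcl3 by -1.39 (SE 0.10), Cxcl10 by 0.88 (SE 0.12) and Cxcl11 by 1.67 (SE 0.11), each with no overlap between the groups. Cxcl1 was lower by a log2 change of -0.82 (SE 0.30) on 68 reads in LPS+CACys and 137 in LPS+CA. That call was lost without replicate 1 of LPS+CA (-0.89), replicate 2 of LPS+CA (-0.65), replicate 1 of LPS+CACys (-0.60) or replicate 2 of LPS+CACys (-0.76). Cxcl9 differed by 0.63 (95% interval 0.05 to 1.22), not called, and was called without replicate 1 of LPS+CA (0.93). Cxcl16 differed by 0.06 (-0.03 to 0.15), not called.

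The 2 adducts, which differ by the quinic acid ester, differed at 2 called genes. The share of all genes called in CGACys against CACys was 1.8%. Cxcl2 was lower with CGACys by a log2 change of -0.25 (SE 0.05) and Cxcl11 was higher by 0.70 (SE 0.10). The Cxcl2 call was lost without replicate 3 of LPS+CACys (-0.22), replicate 1 of LPS+CGACys (-0.24) or replicate 2 of LPS+CGACys (-0.22). Cxcl3 (-0.35, 95% interval -0.59 to -0.11) and Cxcl10 (0.44, 0.18 to 0.70) did not overlap between the adducts, were not called by edgeR and were called by DESeq2. Cxcl3 was also called by edgeR without replicate 3 of LPS+CGACys (-0.46). Cxcl1, Cxcl9 and Cxcl16 overlapped, with differences of 0.18 (-0.48 to 0.84), 0.09 (-0.47 to 0.65) and 0.02 (-0.08 to 0.11).

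Between the parent acids none of the 7 genes was called by edgeR or by DESeq2, with 2 of the 7 at an unadjusted p under 0.05, while edgeR called 1.38% of all tested genes in CGA against CA. The differences were -0.17 for Cxcl2 (95% interval -0.28 to -0.06), -0.27 for Cxcl3 (-0.47 to -0.07), 0.07 for Cxcl10 (-0.20 to 0.34) and 0.18 for Cxcl11 (-0.06 to 0.42). Cxcl2 libraries did not overlap. It was called without replicate 1 of LPS+CA (-0.20), and Cxcl3 was called without replicate 3 of LPS+CA (-0.34). Whether the cysteine had a different effect on CGA than on CA was fitted as an interaction, which was also called by edgeR for none of the 7 (1 at an unadjusted p under 0.05), with 2.18% of all genes called. The interaction was 0.52 for Cxcl11 (0.20 to 0.83) and -0.08 for Cxcl2 (-0.24 to 0.07). The Cxcl11 difference was called by DESeq2, and by edgeR without replicate 3 of LPS+CGACys (0.60).

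The balance between the classes can be read inside each library, where scaling cancels. There were 38.9, 38.2 and 29.5 Cxcl10 reads per 100 Cxcl2 reads in LPS+CGACys and 25.1, 23.3 and 17.7 in LPS+CACys. The ratio was 6.64, 6.81 and 5.61 in LPS+CGA and 5.40, 4.79 and 5.97 in LPS+CA, against 8.59, 10.2 and 8.36 in LPS and 3.11, 3.21 and 1.59 in control. Each adduct group lay above LPS and each parent acid group below it, with no overlap. Cxcl11 reads per 100 Cxcl3 reads averaged 469 ± 116 in LPS+CGACys, 225 ± 38.7 in LPS+CACys, 36.2 ± 5.10 in LPS+CGA and 26.8 ± 2.71 in LPS+CA, against 57.7 ± 12.9 in LPS (SD, n = 3 each). Cxcl2 alone took 59.2% to 64.3% of the reads of the 7 genes in LPS+CGACys, 67.3% to 72.1% in LPS+CACys, 85.1% to 86.8% in LPS+CGA, 86.6% to 87.4% in LPS+CA and 82.3% to 84.1% in LPS.

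**Figure D3:**
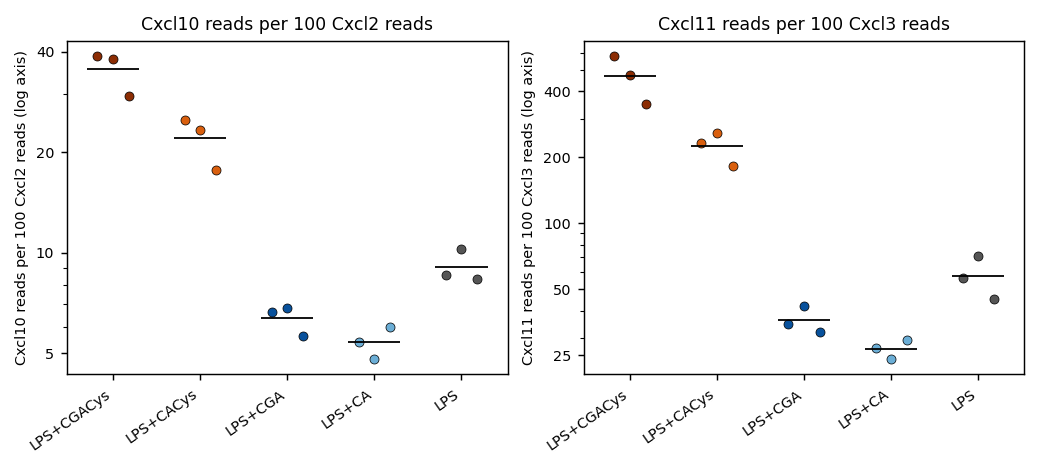
Reads of an interferon-induced chemokine per 100 reads of a neutrophil-attracting one in each LPS-treated library (points, y axis logarithmic), with group means as lines; the left panel shows Cxcl10 over Cxcl2 and the right panel Cxcl11 over Cxcl3. The means for Cxcl10 over Cxcl2 are 35.5 in LPS+CGACys and 22.0 in LPS+CACys, against 9.07 in LPS.

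Taken over 3 genes a class, the mean log2 CPM of Cxcl9, Cxcl10 and Cxcl11 minus that of Cxcl1, Cxcl2 and Cxcl3 was set relative to its mean in LPS. This gap was 1.88 ± 0.32 in LPS+CGACys, 1.34 ± 0.37 in LPS+CACys, -0.40 ± 0.28 in LPS+CGA and -0.84 ± 0.25 in LPS+CA, against 0 ± 0.12 in LPS (SD, n = 3 each). The adduct values correspond to a 3.67-fold and a 2.54-fold shift of the balance towards the interferon-induced genes. The gap gives Cxcl1 and Cxcl9 the same weight as the others despite their few reads.

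The genes sit in 3 places in the genome (GRCm38.p6, the RefSeq form of mm10). Cxcl3 (90786101 to 90788093), Cxcl1 (90891245 to 90893121) and Cxcl2 (90903899 to 90905938) lie together on chromosome 5. Cxcl9 (92321331 to 92328079), Cxcl10 (92346638 to 92348889) and Cxcl11 (92359544 to 92363296) form a second cluster further along chromosome 5, and Cxcl16 is on chromosome 11 (70454389 to 70459984). RefSeq lists Cxcl11 as a transcribed pseudogene in this assembly, which comes from the C57BL/6J strain, whereas RAW264.7 cells are of BALB/c origin. The counts do not show whether a protein is made.

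Genes lying beside the chemokines differed in direction from one another. Near Cxcl1, Cxcl2 and Cxcl3, 3 other genes within 100000 bases were tested. Ppbp, which encodes a platelet chemokine that also acts on Cxcr2, was higher with both adducts, at 27.1 ± 2.17 CPM in LPS+CGACys and 28.1 ± 5.69 CPM in LPS+CACys against 18.2 ± 2.36 CPM in LPS (adjusted p = 0.00117 and 0.0011). Pf4, which encodes platelet factor 4, and Mthfd2l were called with neither adduct against LPS. Near Cxcl9, Cxcl10 and Cxcl11, 6 other genes were tested. With CGACys, Art3 (log2 change 0.47, adjusted p = 0.0029), Scarb2 (0.30, adjusted p = 2.63e-05) and Nup54 (0.20, adjusted p = 0.00952) rose and Ppef2 (-1.52, adjusted p = 0.00127) fell, while Naaa and Sdad1 were not called. With CACys, Art3 (0.38, adjusted p = 0.0262) and Scarb2 (0.16, adjusted p = 0.0205) rose and Ppef2 (-1.36, adjusted p = 0.00675) fell. Around Cxcl16, 8 genes were tested, of which 1 rose and 3 fell with CGACys and 1 fell with CACys. Over all tested genes 29.1% were called with CGACys and 14.3% with CACys, so nothing is read from these counts.

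Cxcl10 and Cxcl11 lie wholly inside the span of Art3, over all 2252 and 3753 of their bases, and Cxcl16 shares 552 bases with Zmynd15. Whether counting used strand is not given in the sources used here, so reads of overlapping genes cannot be told apart. Art3 was at 15.5 ± 1.64 CPM in LPS+CGACys, 14.7 ± 2.24 CPM in LPS+CACys, 9.72 ± 0.70 CPM in LPS+CGA and 9.76 ± 0.53 CPM in LPS+CA, against 11.3 ± 0.62 CPM in LPS (SD, n = 3 each). How reads shared by the similar genes Cxcl1, Cxcl2 and Cxcl3 were assigned is likewise not given in the sources used here.

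**Figure D4:**
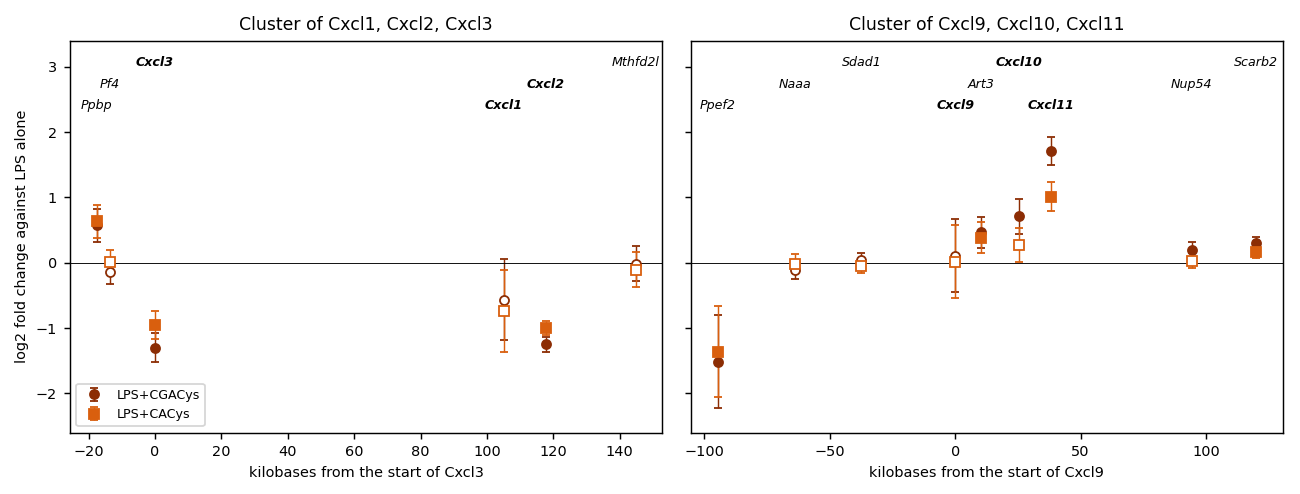
Log2 fold change against LPS alone (y axis, 95% intervals) of each tested gene by the distance of its start from the start of Cxcl3 (left) or Cxcl9 (right) in kilobases (x axis), for LPS+CGACys and LPS+CACys. Filled symbols are called and open ones are not. Cxcl11 has the highest value in the right cluster, at 1.71 and 1.01, and Ppef2 the lowest, at -1.52 and -1.36.

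Of 8 other CXC ligand genes listed, 4 were tested, and with both adducts 2 rose and 0 fell. Over all tested genes 16.1% were called higher with CGACys and 8.51% with CACys. Cxcl13, which encodes a B cell attractant, averaged 2.36 ± 0.11 CPM in LPS+CGACys and 2.42 ± 0.13 CPM in LPS+CACys, against 0.534 ± 0.24 CPM in LPS, with 29 reads in the whole LPS group (adjusted p = 4.93e-05 and 0.000104). It averaged 0.641 ± 0.31 CPM in LPS+CGA and 0.247 ± 0.04 CPM in LPS+CA, neither of them called. Ppbp was the other. Cxcl5, another ligand of Cxcr2, was too scarce to test, at 2, 1 and 6 reads in LPS+CGACys, 3, 3 and 2 in LPS+CACys, 6, 11 and 10 in LPS+CGA, 18, 18 and 4 in LPS+CA, 9, 9 and 6 in LPS and 0 in every control library. Its mean CPM was lowest in the adduct groups among LPS-treated cells, but LPS+CGACys libraries overlapped those of LPS, LPS+CGA and LPS+CA. No difference in Cxcl5 was tested.

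Of 8 receptor genes listed, 3 were tested. Cxcr2 was not, with 0 to 2 reads in any library. Cxcr3 fell with LPS, to 1.90 ± 0.46 CPM in LPS against 5.36 ± 1.08 CPM in control (adjusted p = 1.02e-06), and was called with no compound. Cxcr4, the receptor of Cxcl12, also fell, to 23.8 ± 1.86 CPM in LPS against 191 ± 9.60 CPM in control (adjusted p = 1.34e-11). It was higher with CA, at 35.1 ± 6.54 CPM in LPS+CA (adjusted p = 0.0253), a call lost without replicate 1 or 2 of LPS or replicate 1 or 2 of LPS+CA. Cxcr5, the receptor of Cxcl13, was at 4.66 ± 0.64 CPM in LPS against 3.66 ± 0.45 CPM in control and was called neither with LPS nor with a compound against LPS. Of 5 tested genes for enzymes that cut or release chemokines, 2 fell with each adduct. Over all tested genes 13% were called lower with CGACys and 5.75% with CACys. Adam17, a sheddase of Cxcl16, was at 448 ± 7.63 CPM in LPS+CGACys and 446 ± 21.1 CPM in LPS+CACys against 552 ± 13.5 CPM in LPS (adjusted p = 6.88e-06 and 1.56e-05). Mmp12, a macrophage metalloprotease, fell by 0.35 and 0.27 on the log2 scale (adjusted p = 1.75e-06 and 0.000165).

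Cxcl1, Cxcl2 and Cxcl3 are targets of NF-kB, so its subunits and feedback genes were listed. The list was made with earlier results of these data known, so its counts and adjusted p-values are a description. Of 14 tested, 8 rose and 0 fell with CGACys, and 2 rose and 0 fell with CACys, with median log2 changes of 0.15 and 0.08. The medians over all genes were 0.02 and 0.01. Over all tested genes 16.1% were called higher and 13% lower with CGACys, 8.51% higher and 5.75% lower with CACys, 0.0679% higher and 0.657% lower with CGA, and 2.3% higher and 5.42% lower with CA. Bcl3, a nuclear IkB protein, averaged 84.0 ± 6.86 CPM in LPS+CGACys and 88.5 ± 4.87 CPM in LPS+CACys against 54.3 ± 4.68 CPM in LPS (adjusted p = 3.46e-08 and 1.86e-08). Rel, which encodes the subunit c-Rel, was higher with CGACys (log2 change 0.47, adjusted p = 0.00176), as was Nfkbia, which encodes the inhibitor IkB alpha (0.29, adjusted p = 0.00923). Nfkbiz, which encodes a cofactor for secondary NF-kB targets, was at 311 ± 22.4 CPM in LPS+CGACys and 306 ± 26.5 CPM in LPS+CACys against 327 ± 33.8 CPM in LPS, and was not called. With CGA, edgeR called 0 (3 at an unadjusted p under 0.05) and DESeq2 2. With CA 4 fell, among them Nfkbiz (-0.32, adjusted p = 0.0207) and Nfkb1 (-0.27, adjusted p = 0.000154), while Cxcl2 and Cxcl3 lay above LPS. The count with CA was 1 or 2 without replicate 1 or 2 of LPS or replicate 1 or 2 of LPS+CA, and that with CACys ran from 1 to 4 as single libraries were left out.

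Cxcl9, Cxcl10 and Cxcl11 respond to interferon signalling through STAT and IRF factors, so genes of that pathway were listed. Earlier results of these data were known for this list too, so its counts and adjusted p-values are not independent support. Of 18 tested, 13 rose and 0 fell with CGACys, 8 rose and 0 fell with CACys, 1 fell with CGA and 8 fell with CA. Over all tested genes 16.1% were called higher with CGACys and 8.51% with CACys, and 0.657% lower with CGA and 5.42% with CA. The median log2 changes of the list were 0.39, 0.25, -0.13 and -0.21, beside 0.02, 0.01, -0.002 and 0.009 over all tested genes. Irf3, a factor activated through Toll-like receptors, was called in neither adduct group, with a log2 change of -0.18 (SE 0.07) in LPS+CGACys against LPS. Stat2, part of the factor that binds interferon response elements, averaged 298 ± 29.1 CPM in LPS+CGACys, 264 ± 36.5 CPM in LPS+CACys and 141 ± 15.5 CPM in LPS+CA against 200.1 ± 21.6 CPM in LPS (adjusted p = 0.00203, 0.0374 and 0.0172). Irf7, a factor that amplifies type I interferon responses, averaged 785 ± 66.8 CPM, 694 ± 63.4 CPM and 332 ± 4.03 CPM in the same groups against 509 ± 80.3 CPM in LPS (adjusted p = 0.00032, 0.00896 and 0.00166). Irf2 rose with CGACys, to 108 ± 5.57 CPM in LPS+CGACys against 65.5 ± 3.8 CPM in LPS (adjusted p = 7.7e-09), and was the one gene of this list called between the adducts (0.39, adjusted p = 0.00161). Ifnb1, the interferon beta gene, averaged 0.971 ± 0.16 CPM in LPS+CGACys against 0.440 ± 0.26 CPM in LPS, not called. It was higher in LPS+CGACys than in LPS+CGA at 0.289 ± 0.13 CPM (adjusted p = 0.0217). The count with CACys was 4 or 5 without replicate 1 or 3 of LPS or replicate 1 or 2 of LPS+CACys, and the count with CA was 4 without replicate 2 of LPS. Both counts were 5 with only the groups compared. The count with CGA ran from 0 to 4 as single libraries were left out.

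Factors that destabilise or protect cytokine mRNA were also listed, because chemokine transcripts carry AU-rich elements that some of them recognise. They too were listed with earlier results of these data known. Of 11 tested, 4 rose and 1 fell with CGACys, 4 rose and 0 fell with CACys, 0 were called with CGA by edgeR or DESeq2 (1 at an unadjusted p under 0.05) and 2 fell with CA. Over all tested genes 16.1% were called higher and 13% lower with CGACys, and 8.51% higher and 5.75% lower with CACys. With CGA 0.724% were called, and with CA 5.42% were called lower. The list's median log2 changes were 0.08 with CGACys and 0.03 with CACys, beside 0.02 and 0.01 over all tested genes. The 2 calls with CA were lost without replicate 1 or 2 of LPS or replicate 2 of LPS+CA. Zfp36, which encodes tristetraprolin, a protein that promotes decay of AU-rich mRNAs, averaged 317 ± 27.4 CPM in LPS+CGACys and 289 ± 46.1 CPM in LPS+CACys against 159 ± 13.6 CPM in LPS (adjusted p = 8.53e-06 and 9.58e-05). It averaged 146 ± 2.45 CPM in LPS+CGA and 142 ± 15.1 CPM in LPS+CA. Its relatives Zfp36l1 (0.53 with CGACys and 0.55 with CACys, adjusted p = 0.000112 and 0.000177) and Zfp36l2 (0.30 and 0.27, adjusted p = 0.000111 and 0.00108) rose too. Arid5a, whose product stabilises some cytokine mRNAs, rose by 0.65 and 0.40 (adjusted p = 8.62e-07 and 0.00151). Total RNA counts at 1 time do not separate synthesis from decay, and the part of these genes in the chemokine levels was not tested.

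**Figure D5:**
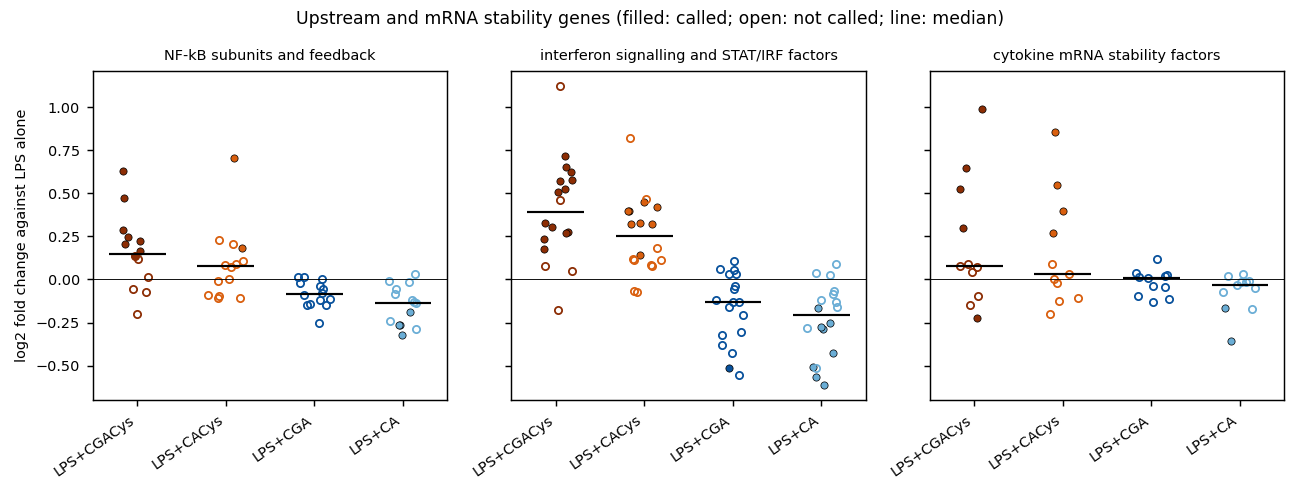
Log2 fold change against LPS alone (y axis) of the tested genes of 3 lists, for the 4 compounds (x axis). Filled points are called, open points are not, and lines are medians. For interferon signalling the medians are 0.39 with CGACys and 0.25 with CACys, and -0.13 with CGA and -0.21 with CA.

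The summed level of 8 neutrophil and mast cell markers was 5.89 to 8.02 CPM in LPS+CGACys, 6.91 to 10.4 CPM in LPS+CACys, 10.2 to 12.1 CPM in LPS+CGA, 12.6 to 16.4 CPM in LPS+CA, 8.77 to 12.0 CPM in LPS and 4.27 to 4.43 CPM in control. Most of it was S100a8, which macrophages can also express, at 4.06 CPM in LPS+CGACys against 7.81 CPM in LPS (adjusted p = 0.000107). It was 10.9 CPM in LPS+CA (adjusted p = 0.0411). Ly6g, a neutrophil marker, was higher with CGACys and with CA, at 1.59 CPM in LPS+CGACys and 1.89 CPM in LPS+CA against 0.694 CPM in LPS (adjusted p = 0.0105 and 0.00598). Those levels rest on 89 and 122 reads against 38. Camp went the other way with CGACys, at 1.22 CPM against 2.36 CPM in LPS (adjusted p = 0.0162), on 69 reads against 129. It was called with no other compound. The LPS+CGACys sums lay below the LPS sums, those of LPS+CA above, and those of LPS+CACys and LPS+CGA overlapped them. Mpo and Retnlg had no read in any library, and S100a9, Elane and Cpa3 had 3 or fewer over all libraries. The summed level of 6 lymphocyte markers was 1.09 to 1.36 CPM in LPS+CGACys, 0.632 to 1.01 CPM in LPS+CACys, 0.364 to 0.543 CPM in LPS+CGA and 0.247 to 0.590 CPM in LPS+CA, against 0.497 to 0.754 CPM in LPS. The LPS+CGACys sums lay above the LPS sums and those of the other compounds overlapped them. Pax5 and Cd79a held nearly all of it, and Pax5 was called with no compound against LPS. The summed level of 6 fibroblast and epithelial markers, mostly Pdgfra and with Col3a1 at 0 in every library, was 6.65 to 6.88 CPM in LPS+CGACys, 4.63 to 6.08 CPM in LPS+CACys, 3.26 to 4.11 CPM in LPS+CGA and 3.19 to 3.92 CPM in LPS+CA, against 4.42 to 5.13 CPM in LPS. These sums lay above LPS with CGACys, overlapped it with CACys and lay below it with both parent acids, and Pdgfra was called higher with CGACys and with no other compound (log2 change 0.62, adjusted p = 0.00704). The part of these markers in the chemokine levels was not tested.

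Likeness of pattern was measured as the root mean square difference between genes in their 4 log2 changes against LPS alone, over 8181 protein-coding genes with a mean of at least 10 CPM in LPS-treated libraries. All 4 changes share the same 3 LPS libraries. The gene nearest to Cxcl2 was Cxcl3, at 0.17 on the log2 scale, followed by Serpinb3b (0.17), Rtn2 (0.23), Slc6a12 (0.25) and Csf3 (0.27). Csf3, which encodes the granulocyte growth factor G-CSF, had log2 changes of -1.13 with CGACys and -0.68 with CACys. The genes nearest to Cxcl10 were Ifi47 (0.03), Ifit3b (0.03), Usp18 (0.05), Gm7609 (0.06) and Phf11b (0.08). Cxcl11 was farther from Cxcl10, at 0.62, than those were, and its own nearest genes were Ccnd2 (0.12), Fcgr1 (0.19) and Mxd1 (0.21). The nearest to Cxcl3 were Serpinb3b (0.12), Cxcl2 (0.17) and Mturn (0.31). The nearest to Cxcl1 were Ccl3 (0.16), Cth (0.18) and Clec4e (0.19), to Cxcl9 Uba7 (0.06), Ccl2 (0.06) and H2-T24 (0.08), and to Cxcl16 Snx1, Igbp1 and Chtop (0.01 to 0.02).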

How the data were processed

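The deposited table holds raw counts of reads per gene, made by the authors for 18 libraries. Per the submitters' processing notes, reads were aligned to mm10 with HISAT and DESeq2 was used, with no versions. The counting program, the annotation and the use of strand are not given in the sources used here. Gene positions came from RefSeq symbols (GRCm38.p6), to which 12411 of the tested genes matched. Groups came from the labels.

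Counts were analysed in R 4.3.3 with edgeR 4.0.16 (limma 3.58.1): filterByExpr at its default minimum count of 10, TMM factors, 1 model with 6 group coefficients, robust quasi-likelihood fits and 10 contrasts, with Benjamini-Hochberg adjustment over 13251 genes and calls at 0.05. The common biological coefficient of variation was 5.68%. Errors beside log2 changes are SE, and limits are 95% intervals. Class means used log2 CPM with a prior count of 2. Where a group had no read, a limit of 3 reads over the group was used. It covers counting error only.

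The members and gene lists were chosen with earlier results of these data known. Genes named are the 7 chemokines, up to 4 called genes with the largest change in each list, the 5 genes nearest in pattern to Cxcl2 and to Cxcl10 and the 3 nearest to each other chemokine, tested genes within 100000 bases, and cell markers. Nfkbiz, Cxcl5, Cxcr2, Ifnb1 and others named beside these with values that were not called were taken from the same lists after their values were seen.

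Alternatives were RLE and upper-quartile factors, omission of the filter or its replacement by 1 CPM in 3 libraries, a block for replicate number, only the groups compared, DESeq2 1.42.0 and omission of each library. The method was tested on simulated counts. No libraries held identical values. Libraries with the same replicate number did not deviate together. Promoter and protein sequences were not analysed here.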

Additional observations from a re-analysis of the deposited data

Results flagged for a closer look

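Among listed genes and tested genes near the chemokines, 1 had a called difference between adduct effects, beside 2.18% of all tested genes. The lists held 4, 3, 14, 18, 11 and 5 tested genes. Near the chemokines 3, 6 and 8 genes were tested, with Ppbp and Pf4 also in a list. Nothing is read from this count. For Naaa, which encodes a lysosomal amidase and lies near Cxcl9, the change from adding cysteine to CGA, less the change from adding it to CA, was -0.40 on the log2 scale (SE 0.10, edgeR adjusted p = 0.025). In LPS alone Naaa averaged 47.6 ± 2.59 CPM, and CA was the only compound called against LPS (log2 change -0.37, adjusted p = 0.000749). Naaa averaged 47.1 ± 3.79 CPM in LPS+CACys against 36.9 ± 1.30 CPM in LPS+CA, a log2 change of 0.36 (adjusted p = 0.000253). It averaged 44.1 ± 4.03 CPM in LPS+CGACys against 45.4 ± 1.68 CPM in LPS+CGA, a log2 change of -0.04 (adjusted p = 0.677). None of the 7 chemokine genes had a called difference of this kind. Cell markers were outside this search, and some macrophage markers were called by edgeR. Among them were Cd14 (-0.35, adjusted p = 0.00235), Lyz2 (-0.38, adjusted p = 0.00932) and Itgam (-0.27, adjusted p = 0.0163).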

How the results depend on the processing

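The class gap kept its direction in all 16 recalculations under other settings and all 48 with 1 library left out. The 16 used RLE or upper-quartile factors, which cancel inside a library, so they could hardly move the gap. In the 48 it moved by less than the replicate spread, but omitting 1 of 3 libraries can hardly move a mean by more. The gap ran from 1.72 to 2.03 with CGACys and from 1.18 to 1.54 with CACys against LPS as single libraries were left out. In the same way the gap ran from -0.49 to -0.24 with CGA and from -0.94 to -0.70 with CA. It was not computed for LPS against control, where Cxcl1, Cxcl3 and Cxcl9 had no control reads. The number of the 7 genes called with CGA against LPS was 1, but 0 with RLE factors, 0 with only the groups compared, 2 with the replicate block and 2 with DESeq2. It was 2 without a filter in CGA against CA, 4 with DESeq2 in CGACys against CACys, and 1 without a filter, with the replicate block and with DESeq2 for the interaction between adduct and phenolic. Leaving out single libraries, it ran from 0 to 2 with CGA, 2 to 4 with CA, 3 to 4 with CACys and 4 to 4 with CGACys, from 4 to 5 for each adduct against its parent, 1 to 3 for CGACys against CACys, and 0 to 1 for CGA against CA and for the interaction. The cause was not tested. Log2 changes near 0 changed sign when a library was left out: Cxcl16 with CA (-0.079 to 0.0018), with CACys (-0.0084 to 0.062) and between adducts (-0.0044 to 0.034), Cxcl9 with CACys (-0.099 to 0.087), in CGA against CA (-0.058 to 0.55) and in the interaction (-0.46 to 0.15), Cxcl1 with CA (-0.093 to 0.15) and between adducts (-0.036 to 0.52), Cxcl3 in the interaction (-0.19 to 0.013), and Cxcl2 with CGA (-0.050 to 0.0048). Libraries with the same replicate number did not deviate together (every correlation under 0.1, and 17 of 54 best with their own number). These values show no shared shift for the block to remove. They cannot show how the replicates were made, which the labels do not say. Few reads limit Cxcl1 and Cxcl9.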
